A study of Homo sapiens with 9 samples.

Results

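The response of PC9 cells to osimertinib was compared between the phases of the cell cycle: for every gene, the difference between day 28 and day 0 in S and G2 was set against the same difference in G1. PC9 is an established line of human lung adenocarcinoma whose growth is driven by mutant EGFR, the receptor of epidermal growth factor, and osimertinib is a kinase inhibitor directed at it. The cells carried the FUCCI4 reporter, whose CDT1 and geminin (GMNN) markers come and go with the cell cycle. They were fixed with glyoxal, permeabilised with saponin and separated by flow sorting, first on DNA stain and then on reporter colour, into G1, S and G2. All 9 libraries of the series entered the comparison. At day 0 the untreated cells gave G1 and S libraries of clones 1 and 7 and a G2 library of clone 1. At day 28, with 500 nM osimertinib, there were G1 libraries of clones 1 and 7 and a single S and a single G2 library, both of clone 1. No label says whether libraries of a clone came from separate cultures, so p-values measure only the spread between these libraries. Of 20442 genes in the deposited table, 12391 passed a filter on low values and were tested.

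In a dividing cell, passage through G1 is controlled by cyclin-dependent kinases (CDKs) that inactivate RB and so release E2F factors. E2F factors switch on the genes of origin licensing and DNA synthesis, and later the MuvB complex, with B-MYB and FOXM1, switches on the genes of mitosis. EGFR signalling through ERK is a main input to that decision in EGFR-mutant lung cancer, and cells that leave the cycle for G0 carry the same DNA content as G1 cells. A G1 sort can therefore hold both cells about to enter S and cells that have stopped.

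Every level below is log2 of the deposited value plus 1, where the deposited value is a scaled read count over a gene's span, introns included. The phase difference is the day 28 minus day 0 difference in S and G2 minus that in G1, on the log2 scale and with its standard error (SE) after the ± sign. A positive phase difference means that day 28 stood higher relative to day 0 in S and G2 than it did in G1. Levels of different genes are not compared, because spans differ in length. Reads recovered from the deposited values came to 8.83 M to 108.7 M per library (mean 43.0 M, where M stands for 1e6). Day 0 G1 clone 7 was the shallowest and day 0 G1 clone 1 the deepest. These totals are not a stated sequencing depth, and their mean is above the depth that the labels give. Cyclin B1 (CCNB1), which drives entry into mitosis, followed the phase labels at day 0: it lay at 13.38 and 14.75 in G1 (clones 1 and 7), 15.41 and 15.75 in S and 17.26 in G2. The mean of the 5 epithelial markers, CDH1, EPCAM and keratins among them, lay between 16.10 and 17.38 in all libraries. Only 2 of 10 leukocyte markers and 3 of 10 fibroblast and endothelial markers passed the filter on low values.

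No single gene passed the test for a phase difference. With phase, day and the day-by-phase term in limma (moderated test, Benjamini-Hochberg adjustment over all 12391 genes), 0 genes (0%) had an adjusted p under 0.05, and the smallest adjusted p was 0.219. At an unadjusted p under 0.05 there were 1382 genes, 11.2% of those tested: 805 (6.50%) with a positive phase difference and 577 (4.66%) with a negative one. The median phase difference over all tested genes was 0.01. The count of calls depended on the libraries used. Clone 1 alone (6 libraries, the same model, 1 residual degree of freedom) gave 82 genes higher (0.662%) and 70 lower (0.565%) past the adjusted threshold. Each of the 6 groups then holds 1 library, so the error of that fit is the disagreement between the S and G2 differences of one clone and not a spread between libraries of a group. Leaving out day 28 G1 clone 1 gave 49 higher (0.395%) and 7 lower (0.0565%), and 25 genes were called in both settings. In the latter fit day 28 G1 is clone 7 and day 28 S and G2 are clone 1, so phase and clone cannot be told apart at day 28.

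Genes of DNA replication and mitosis made up the clearest group. Over the 132 tested members of 5 lists (origin licensing, the replication fork, homologous recombination, mitotic kinases and cyclins, and the kinetochore and spindle), 107 had a positive phase difference at an unadjusted p under 0.05 and 0 a negative one, against 6.50% and 4.66% of all tested genes. Their median phase difference was 1.73, against 0.01 over all tested genes, and 130 of the 132 values were positive. The G1 side of this value averages clones 1 and 7, while day 28 S and G2 are clone 1 only and no clone term was fitted. A clone difference in the G1 response therefore enters it, and the median was 1.01 in clone 1 alone and 1.66 with the clone as a block. In 103 of the 132 genes each of the 3 differences between day 28 and day 0 libraries in S and G2 lay above all 4 in G1, which held for 14.0% of all tested genes. None of the 132 passed the adjusted test. The results for these 5 lists together were added after seeing the data, and the lists were made with earlier results of these data known. The list of G1/S cyclins, CDKs and E2F factors was not among the 5, with 7 of 20 tested genes positive at that level and a median of 0.54.

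Most of this difference lay in G1. The median day 28 minus day 0 difference over the 132 genes was -1.90 in G1, -0.09 in S and -0.27 in G2, against 0.02, 0.05 and 0.01 over all tested genes. Seen the other way, the median lead of S over G1 was 0.68 at day 0 and 2.49 at day 28, and that of G2 over G1 was 0.69 and 1.93. Of the 132 genes, 87 (65.9%) were lower by 1 or more at day 28 in G1 but not in the mean of S and G2, compared with 10.2% of all tested genes. A further 19 were lower by 1 or more in both, and 4 were higher by 1 or more in S and G2 only. In bulk RNA, fewer cells that express a gene and less RNA per cell cannot be told apart, which bears on every G1 value here.

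In the median the clones differed in size but not in direction. Over the 132 genes the median day 28 minus day 0 difference in G1 was -1.19 in clone 1 and -2.46 in clone 7. Their mean level in G1 was 11.85 (clone 1) and 12.35 (clone 7) at day 0, and 10.67 and 9.78 at day 28. S stood at 12.99 and 12.91 at day 0 and at 12.85 at day 28, and G2 at 13.18 and 12.83. Both day 28 G1 libraries lay below every other library, while the day 28 S and G2 libraries lay close to their day 0 counterparts. Clone 1 alone gave a median phase difference of 1.01. Over the 12 single-library differences the median ranged from 0.92 to 2.53 (SD 0.54). Without the lone day 28 S library 53 of the 132 genes had a positive phase difference at an unadjusted p under 0.05, and without day 28 G1 clone 7 it was 69.

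Measures of library make-up also differed between the days and between the day 28 libraries. The share of reads from the mitochondrial genome was 6.07% to 10.7% at day 0, and at day 28 it was 19.6% and 8.61% in G1 (clones 1 and 7), 21.6% in S and 15.8% in G2. Read density over 413 olfactory receptor genes was 0.00108 to 0.00454 reads per kb and per M reads at day 0 and 0.00771 to 0.0259 at day 28, highest in G2. The part of the mitochondrial share in the phase differences was not tested. With the olfactory density subtracted from every gene 3 genes passed the adjusted threshold, 0 of them in the 5 lists.

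**Figure D1:**
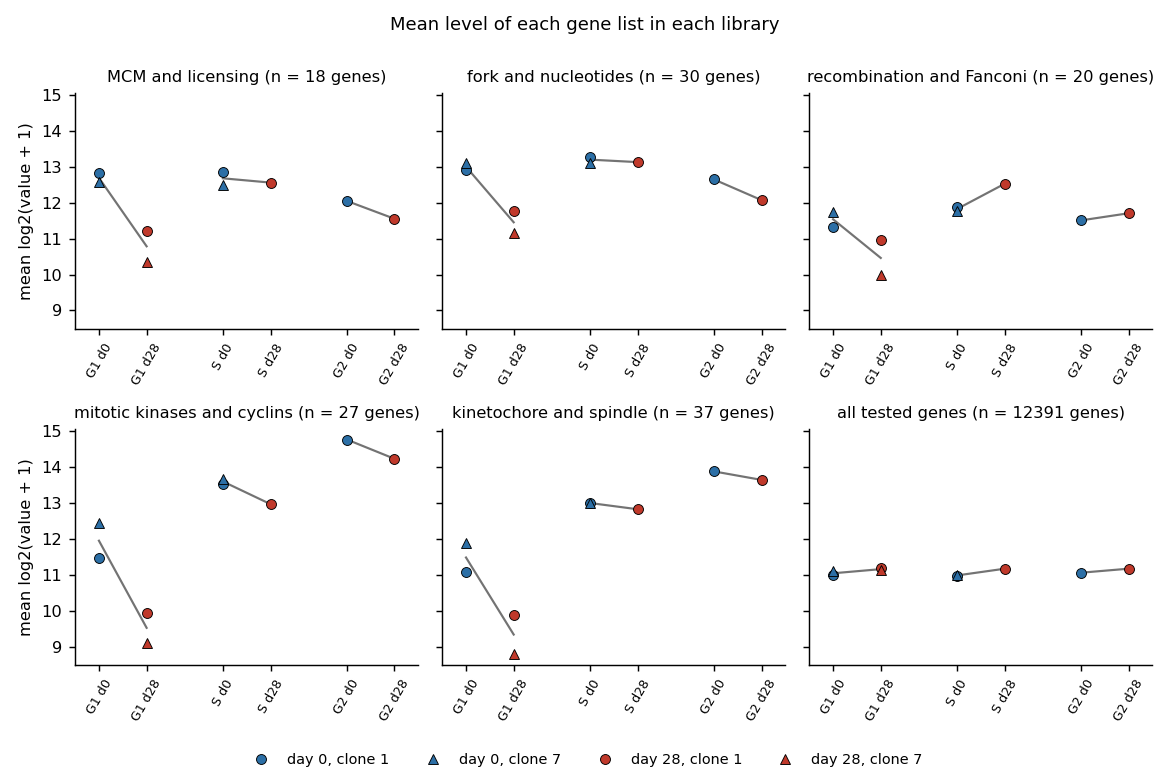
Mean level, log2(value + 1), of the tested genes of 5 proliferation lists and of all tested genes, in each of the 9 libraries (circles clone 1, triangles clone 7, blue day 0, red day 28), with lines joining the means of day 0 and day 28 within a phase. In each proliferation list the day 28 G1 points are the lowest of the panel and the S and G2 lines are nearer to flat, and over all tested genes the libraries lie between 10.97 and 11.18.

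Origin licensing loads the MCM helicase onto DNA in G1, before any synthesis starts. Of the 18 genes on this list 15 were at an unadjusted p under 0.05, all with a positive phase difference (median 1.70), and the other 3 were CDC7 (1.08), CDT1 (0.80) and MCM6 (0.98). MCM10, which helps the helicase to fire, lay at 12.15 and 11.81 in day 0 G1 (clones 1 and 7) and at 10.02 and 9.31 in day 28 G1. In S it stood at 11.89 and 11.10 at day 0 and 11.72 at day 28, and in G2 at 10.65 and 10.79. Day 28 lay below both day 0 clones in G1 and between them in S. The phase difference of MCM10 was 2.51 ± 0.49 (limma adjusted p = 0.23). The origin recognition subunits ORC6 (2.20 ± 0.43) and ORC1 (2.12 ± 0.55) had similar values. GINS3, a subunit of the active helicase, stood at 2.36 ± 0.99, with day 28 G1 at 7.98 and 5.51 in clones 1 and 7.

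CDC45, the factor that turns the loaded MCM ring into a working helicase, stood at 12.60 and 13.06 in G1 (clones 1 and 7) and 13.04 and 13.06 in S at day 0. At day 28 both G1 libraries were lower, at 11.41 and 10.89, while S stood at 13.49. G2 was 11.60 at day 0 and 11.92 at day 28. G1 and S overlapped at day 0 and lay apart at day 28. The phase difference was 2.07 ± 0.38 (95% interval 1.23 to 2.91, limma adjusted p = 0.219, ENSG00000093009, chromosome 22, 19479969 to 19518908).

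On the list of the replication fork and nucleotide supply, 21 of 30 genes were at an unadjusted p under 0.05 and positive (median 1.25). RRM2, a subunit of ribonucleotide reductase, lay at 14.70 and 14.93 in day 0 G1 and at 12.28 and 10.90 in day 28 G1. S held 15.64 and 15.27 at day 0 and 15.20 at day 28, while G2 held 15.14 and 13.66. Day 28 G1 was the lowest group of RRM2 and day 28 G2 the next. The phase difference was 2.44 ± 0.60 (limma adjusted p = 0.256). Claspin (CLSPN), a checkpoint adaptor, stood at 2.28 ± 0.61, the chromatin assembly subunit CHAF1B at 2.14 ± 0.45 and thymidine kinase TK1 at 1.91 ± 0.42. The members that did not reach an unadjusted p of 0.05 included the single-strand binding proteins RPA1, RPA2 and RPA3, the nucleotide enzymes DUT and RRM1, the polymerase subunits POLA1 and POLD3, and TIPIN. The phase differences of these genes were also positive, from 0.16 (DUT) to 1.52 (TIPIN).

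Homologous recombination repairs breaks from a sister copy and is used in S and G2. Of the 20 tested genes of recombination and the Fanconi pathway, 17 were at an unadjusted p under 0.05, all positive (median 1.59), and BRCA1 (0.74), FANCM (0.21) and PALB2 (0.33) were not. EXO1, an exonuclease that resects broken ends, lay at 12.93 and 13.35 in day 0 G1 and at 11.24 and 10.34 in day 28 G1 (clones 1 and 7). In S it was 13.23 and 12.92 at day 0 and 13.44 at day 28, and in G2 11.98 and 12.49. Day 28 S and G2 stood above their day 0 levels while both day 28 G1 libraries lay below theirs. The phase difference was 2.78 ± 0.44 (95% interval 1.79 to 3.77, limma adjusted p = 0.219, ENSG00000174371, chromosome 1, 241850426 to 241889600). MND1, a meiotic recombination factor, stood at 2.64 ± 0.70, the DNA translocase RAD54L at 2.23 ± 0.55 and the recombination mediator BRCA2 at 2.20 ± 0.82. The median day 28 minus day 0 difference of this list was -0.98 in G1, 0.51 in S and 0.30 in G2.

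Other repair lists had medians nearer to that of all genes. POLQ, the polymerase of theta-mediated end joining, lay at 10.40 and 11.78 in day 0 G1 and 11.18 and 9.93 in day 28 G1, at 11.45 and 11.52 in day 0 S and 13.13 in day 28 S. G2 was 11.32 at day 0 and 12.72 at day 28, so that POLQ was highest in the day 28 S and G2 libraries. Its phase difference was 2.08 ± 0.67 (limma adjusted p = 0.318). Among 13 translesion and error-prone polymerase genes 2, POLQ and MAD2L2 (1.11), were positive at an unadjusted p under 0.05. Over all tested genes the share was 6.50%, and the list median was 0.04. Of 7 mismatch repair genes 1 was positive at that level, against the same 6.50%: MSH6, a subunit of the sensor of mispaired bases. MSH6 lay at 15.48 and 15.61 in day 0 G1 against 13.59 and 13.10 in day 28 G1. In S it stood at 14.48 and 14.19 and then 14.01, in G2 at 13.92 and 12.66, and its phase difference was 1.48 ± 0.40 (limma adjusted p = 0.256). APOBEC3B, a cytidine deaminase, stood at 0.46 ± 0.54, and 0 of 4 tested APOBEC3 genes were at an unadjusted p under 0.05.

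Mitotic kinases, cyclins and entry regulators had the same shape. Of 27 genes 23 were at an unadjusted p under 0.05 and positive (median 1.90), and their median day 28 minus day 0 difference was -2.66 in G1, -0.67 in S and -0.62 in G2. MKI67, the proliferation antigen that coats mitotic chromosomes, lay at 11.28 and 13.39 in day 0 G1 (clones 1 and 7) and at 9.45 and 7.54 in day 28 G1. In S it was 14.00 and 14.26 at day 0 and 13.75 at day 28, and in G2 14.98 and 14.76. The day 0 G1 libraries were themselves far apart, and the day 28 G1 libraries lay below both. The phase difference was 3.52 ± 0.93 (95% interval 1.44 to 5.60, limma adjusted p = 0.256), and 1.59 in clone 1 alone. Securin (PTTG1), which guards sister chromatids until anaphase, stood at 3.03 ± 0.63, the kinase AURKB at 2.67 ± 0.71 and the APC/C activator CDC20 at 2.61 ± 0.65. Cyclin B1 (CCNB1) lay lower at day 28 in every phase, with differences of -2.77 in G1, -1.37 in S and -1.20 in G2, for a phase difference of 1.48 ± 0.55 (limma adjusted p = 0.371).

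PKMYT1, which holds CDK1 inactive until mitosis, lay at 12.42 and 13.06 in day 0 G1 and at 10.99 and 10.54 in day 28 G1. S held 13.30 and 13.45 at day 0 and 13.70 at day 28, and G2 11.95 and 12.14. Day 28 S was its highest library and the day 28 G1 libraries its lowest. It had a phase difference of 2.25 ± 0.39 (limma adjusted p = 0.219, ENSG00000127564, chromosome 16, 2968317 to 2979657). The exceptions on this list were the kinases AURKA (0.62) and PLK1 (-0.45), the phosphatase CDC25B (0.03) and WEE1 (-0.13), the other inhibitory kinase of CDK1. PLK1 lay at 9.32 and 11.82 in day 0 G1 and at 9.66 and 9.73 in day 28 G1, so that its day 28 G1 values lay between those of the day 0 clones. WEE1 stood higher at day 28 in every phase, by 0.94 in G1, 1.01 in S and 0.55 in G2.

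Among 37 kinetochore, spindle and cytokinesis genes 31 were at an unadjusted p under 0.05 and positive (median 1.90), and all 37 values were positive. NUSAP1, a microtubule-binding protein of the spindle, lay at 11.84 and 11.70 in day 0 G1 and at 9.54 and 8.82 in day 28 G1. In S it was 13.88 and 13.40 at day 0 and 13.75 at day 28, and in G2 15.10 and 14.65. The days lay apart in G1, and in S the day 28 level lay between those of the day 0 clones. For NUSAP1 the phase difference was 2.46 ± 0.43 (95% interval 1.51 to 3.41, limma adjusted p = 0.219, ENSG00000137804, chromosome 15, 41332958 to 41380186). The mitotic kinesin KIF20A stood at 3.27 ± 1.06, the kinetochore protein CENPF at 2.81 ± 0.77 and the condensin subunit NCAPG at 2.80 ± 0.75. SKA1, of a microtubule-binding kinetochore complex, stood at 2.74 ± 1.48 and did not reach an unadjusted p of 0.05, with day 28 G1 at 7.22 and 3.07 in clones 1 and 7.

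The factors that open S phase were less uniform. Of 20 tested G1/S cyclins, CDKs and E2F factors, 7 were at an unadjusted p under 0.05, all positive (CDC25A, E2F7, MYBL2, E2F8, E2F1, CCNE1 and CDK2). The share over all tested genes was 6.50%, and the list median was 0.54. CDC25A, the phosphatase that activates CDK2, lay at 11.00 and 9.52 in day 0 G1 and at 8.14 and 7.22 in day 28 G1. Its S levels were 9.95 and 9.55 at day 0 and 10.15 at day 28, and its G2 levels 8.82 and 9.08. Day 28 S and G2 stood above day 0 and day 28 G1 below it. The phase difference of CDC25A was 2.91 ± 0.74 (limma adjusted p = 0.256). MYBL2, which encodes B-MYB, stood at 2.11 ± 0.45, and the repressive E2F factor E2F7 at 2.11 ± 0.74. Cyclin E2 (CCNE2), which activates CDK2 at the start of S, had no settled sign, with a phase difference of 0.49 ± 1.72 (limma adjusted p = 0.945): in S it was 8.87 and 8.20 at day 0 and 10.97 at day 28, while day 28 G2 held a single read. Without the day 28 S library the value for CCNE2 was -3.16.

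Genes that hold the cycle back did not mirror this. Of 30 tested CDK inhibitors, quiescence genes and p53 targets, 1 (CDKN2C) was positive at an unadjusted p under 0.05 and 1 (TXNIP) negative. Neither share was above the 6.50% and 4.66% of all tested genes, and the list median was -0.07. CDKN1A (p21), a CDK inhibitor and p53 target, stood at 0.61 ± 0.90 (limma adjusted p = 0.848) and the CDK inhibitor CDKN1B (p27) at 0.32 ± 0.48 (limma adjusted p = 0.848). CDKN2C (p18), an inhibitor of CDK4 and CDK6, lay at 6.88 and 8.08 in day 0 G1 and 6.47 and 5.58 in day 28 G1, at 7.69 and 8.63 in day 0 S and 8.72 in day 28 S. Its G2 levels were 9.58 and 10.39, and its phase difference was 2.12 ± 0.87 (limma adjusted p = 0.408). TXNIP, an arrestin-like brake on glucose uptake, stood at -1.30 ± 0.48, and PIK3IP1, a negative regulator of PI3 kinase, at -1.54 ± 0.83. The genes whose fragments make up the reporter, to which reporter reads could add, stood at 0.80 ± 1.09 (CDT1) and 0.57 ± 0.96 (GMNN).

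The 12 genes named on the positive side were those with the smallest unadjusted p among genes with a mean of at least 3 log2 CPM (reads per M) whose differences did not overlap between G1 and the other phases. None was past the threshold, and all 12 shared an adjusted p of 0.219. Genes chosen in this way, on either side, have unadjusted intervals clear of no difference through the choice itself. They were TROAP, EXO1, PHF19, CDKN3, CENPW, NUSAP1, PKMYT1, CDCA5, CPNE7, CDC45, EZH2 and SAA1, with phase differences from 2.07 to 3.07. Of the 12, EXO1, NUSAP1, PKMYT1 and CDC45 are members of the 5 proliferation lists. On the narrowest span of each gene the phase difference was 1.29 for EZH2 and 1.24 for SAA1 (limma adjusted p = 0.595 and 0.851).

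TROAP, a spindle-associated protein, lay at 10.43 and 10.88 in day 0 G1 (clones 1 and 7) and at 9.26 and 8.35 in day 28 G1. In S it was 12.14 and 12.04 at day 0 and 13.26 at day 28, and in G2 13.56 and 14.87. Day 28 lay below day 0 in G1 and above it in S and G2. The phase difference was 3.07 ± 0.45 (95% interval 2.06 to 4.09, ENSG00000135451, chromosome 12, 49323609 to 49331617). CENPW, a histone-fold protein of the centromere, lay at 12.08 and 12.64 in day 0 G1 and at 9.47 and 9.25 in day 28 G1. S held 12.81 and 12.83 at day 0 and 12.06 at day 28 and G2 13.83 and 12.88, so day 28 was lower in every phase and lowest in G1. Its phase difference was 2.16 ± 0.37 (ENSG00000203760, chromosome 6, 126340274 to 126348492). CDCA5 (sororin), which keeps sister chromatids together, lay at 13.40 and 13.66 in day 0 G1 and at 11.60 and 10.75 in day 28 G1. S held 14.72 and 14.34 at day 0 and 14.63 at day 28 and G2 14.51 and 14.30, with no comparable gap between the days. CDCA5 had a phase difference of 2.32 ± 0.42 (ENSG00000146670, chromosome 11, 65066365 to 65079415).

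CDKN3, a phosphatase that acts on CDKs, had the largest G1 difference of the 12, with 11.19 and 12.10 at day 0 and 7.75 and 8.06 at day 28. Its S levels were 12.34 and 12.87 at day 0 and 11.70 at day 28, and its G2 levels 14.34 and 13.39. CDKN3 was therefore lower at day 28 in every phase, with G1 the lowest. The phase difference was 2.82 ± 0.48 (95% interval 1.75 to 3.88, ENSG00000100526, chromosome 14, 54397069 to 54420078).

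EZH2 and PHF19 belong to Polycomb repressive complex 2, which methylates histone H3. EZH2, its methyltransferase, lay at 13.11 and 13.48 in day 0 G1 and at 12.53 and 11.90 in day 28 G1. Its S levels were 13.59 and 13.34 at day 0 and 14.45 at day 28, and its G2 levels 13.26 and 14.24. The 5 day 0 libraries lay close together, and at day 28 S and G2 lay above them all and both G1 libraries below. EZH2 had a phase difference of 2.07 ± 0.38 (95% interval 1.22 to 2.91, ENSG00000106462, chromosome 7, 148807646 to 148847298). PHF19, a Polycomb-like accessory subunit, lay at 11.92 and 12.12 in day 0 G1 and at 8.96 and 8.81 in day 28 G1. S stood at 12.09 and 12.37 at day 0 and 11.22 at day 28, and G2 at 12.89 and 12.28. Its day 28 levels were thus lower in all phases, and its phase difference was 2.29 ± 0.37 (95% interval 1.47 to 3.11, ENSG00000119403, chromosome 9, 120857944 to 120894829). Among 23 tested chromatin demethylases and methylation genes, DNMT3B (1.72 ± 0.65), DNMT1 (0.85 ± 0.35) and EZH2 were at an unadjusted p under 0.05 with a positive sign and KDM2A (-0.93 ± 0.36) with a negative sign. Over all tested genes 6.50% were positive and 4.66% negative at that level. DNMT3B, a de novo DNA methyltransferase, stood at 12.04 in day 28 S and 11.56 in day 28 G2, against 8.86 to 10.24 in the 5 day 0 libraries.

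CPNE7, a calcium-dependent membrane-binding copine, lay at 10.78 and 11.72 in day 0 G1 and at 8.33 and 8.25 in day 28 G1. S held 11.24 and 11.24 at day 0 and 10.85 at day 28, and G2 10.15 and 10.83, with a phase difference of 3.03 ± 0.55 (ENSG00000178773, chromosome 16, 89575898 to 89596621). SAA1, an acute-phase serum amyloid, was the only named gene on the positive side that was higher at day 28 in G1 too. It lay at 9.78 and 10.05 in day 0 G1 and 10.70 and 10.47 in day 28 G1, at 8.96 and 8.66 in day 0 S and 11.85 in day 28 S. G2 was 9.40 at day 0 and 12.36 at day 28, and the phase difference was 2.33 ± 0.43 (ENSG00000173432, chromosome 11, 18266888 to 18269855). SAA2 is nearly identical to SAA1, so the split of reads between the copies is uncertain.

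**Figure D2:**
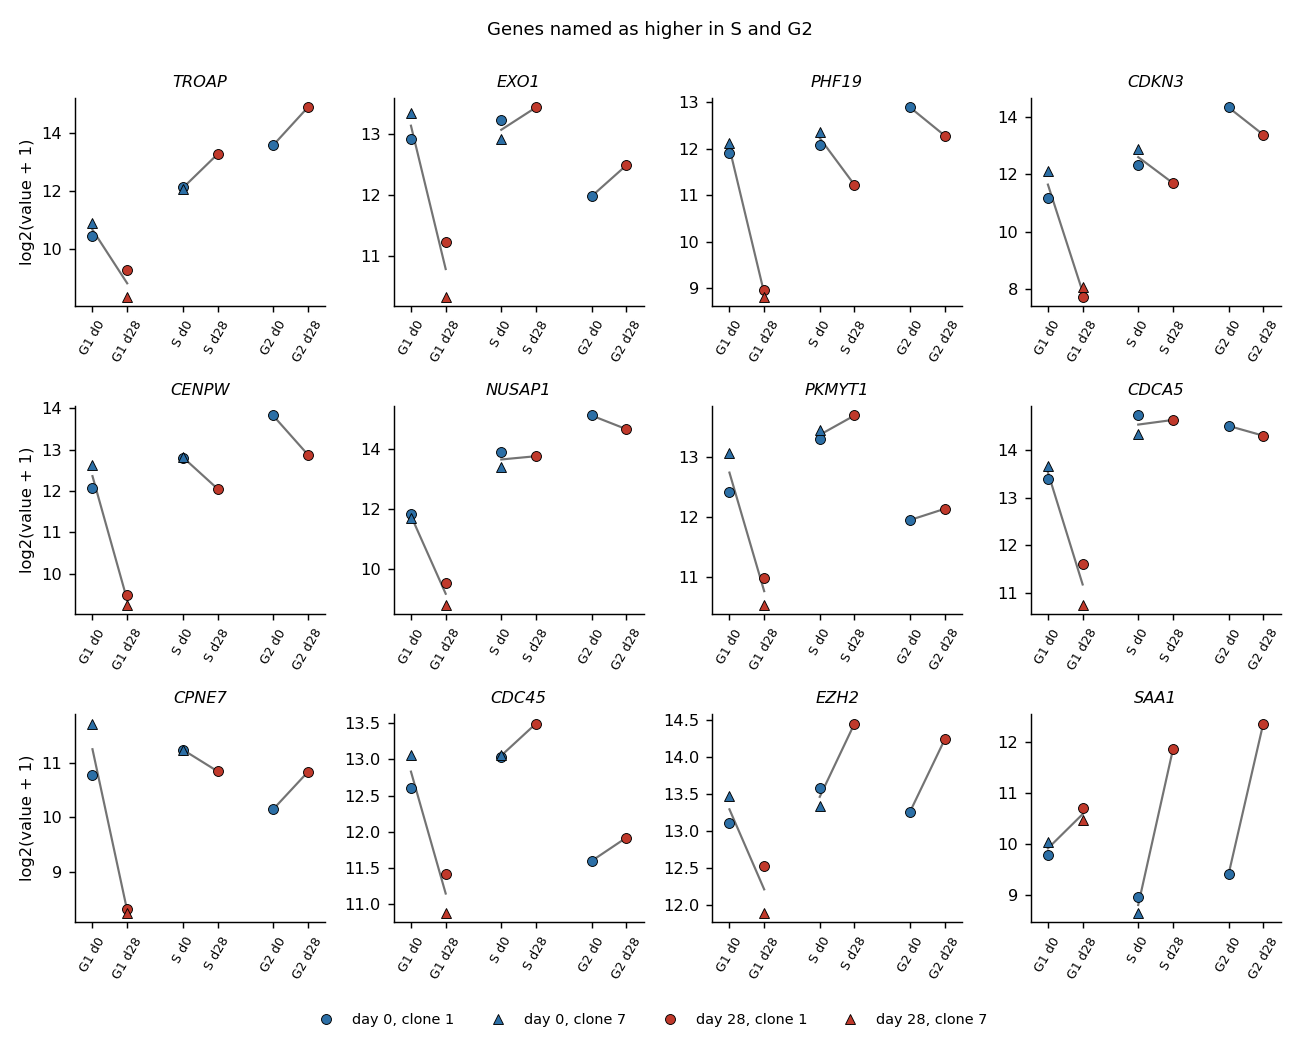
Levels, log2(value + 1), of the 12 genes named on the positive side in each library (circles clone 1, triangles clone 7, blue day 0, red day 28), with lines joining the means of a phase. In all panels but SAA1 both red G1 points lie below both blue G1 points.

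The letters of the promoters were also read. The positive genes share a direction because they were selected on it. E2F sites and the CHR element TTTGAA, through which MuvB acts, are classical promoter elements of cell cycle genes, and NF-Y binds the CCAAT boxes that often accompany a CHR. RefSeq promoter windows (GRCh38.p14, 250 bases before to 50 after the start) were found for 112 of the 132 proliferation genes, as 143 windows. TTTGAA stood on either strand in 32.9% of these windows, compared with 10.4% of the 14526 windows of all tested genes. An E2F match (TTTCCCGC, TTTGGCGC or TTTCGCGC, either strand) stood in 24.5% against 4.22%, and CCAAT on either strand in 60.1% against 34.8%. The lists were made of known cell cycle genes, so these shares describe the lists. Of the 904 windows of all genes with a positive phase difference at an unadjusted p under 0.05, 16.1% held TTTGAA, 9.07% an E2F match and 40.8% CCAAT. This set holds the listed genes too. Outside the 5 lists, where cell cycle genes such as CDCA5 and CENPW remain, the 789 windows of the positive genes held these letters in 13.4%, 6.72% and 37.5%. The 707 windows of the negative genes held them in 12.0%, 2.97% and 32.0%. A match is a description of letters and not a site.

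The 250 bases before the start are given here, 5′ to 3′ on the gene's strand, for 5 named genes on the positive side chosen because their windows hold a match, and for TSPAN1, which has the most negative phase difference of the named genes and no match in its window. The choice is not representative: windows of the negative genes BPGM, WIPI1, NPEPPS and SEMA3C hold CCAAT matches, which are not shown. Capitals mark matches to the motifs or their reverse complements (TTCAAA for CHR, ATTGG for CCAAT). CDKN3 shows a CHR match between CCAAT boxes, NUSAP1 and CDCA5 each show an E2F match, and CDC45 and EZH2 show CCAAT boxes only in this stretch.
CDKN3, chr14:54396757-54397006, plus strand: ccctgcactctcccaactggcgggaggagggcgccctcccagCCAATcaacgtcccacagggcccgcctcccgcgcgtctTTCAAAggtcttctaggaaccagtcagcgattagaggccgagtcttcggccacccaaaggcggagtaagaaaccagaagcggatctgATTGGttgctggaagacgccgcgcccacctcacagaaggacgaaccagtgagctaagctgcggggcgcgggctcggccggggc
NUSAP1, chr15:41332631-41332880, plus strand: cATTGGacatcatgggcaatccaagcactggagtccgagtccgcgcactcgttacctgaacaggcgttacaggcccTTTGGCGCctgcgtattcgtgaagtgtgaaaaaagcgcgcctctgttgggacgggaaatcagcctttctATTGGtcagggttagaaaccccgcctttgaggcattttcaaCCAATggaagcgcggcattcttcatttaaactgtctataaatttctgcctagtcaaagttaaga
CDCA5, chr11:65084041-65084290, minus strand: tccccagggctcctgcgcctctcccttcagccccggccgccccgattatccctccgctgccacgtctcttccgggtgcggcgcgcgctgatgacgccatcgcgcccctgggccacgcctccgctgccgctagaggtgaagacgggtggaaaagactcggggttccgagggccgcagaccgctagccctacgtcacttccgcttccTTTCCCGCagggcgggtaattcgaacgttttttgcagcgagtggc
CDC45, chr22:19479670-19479919, plus strand: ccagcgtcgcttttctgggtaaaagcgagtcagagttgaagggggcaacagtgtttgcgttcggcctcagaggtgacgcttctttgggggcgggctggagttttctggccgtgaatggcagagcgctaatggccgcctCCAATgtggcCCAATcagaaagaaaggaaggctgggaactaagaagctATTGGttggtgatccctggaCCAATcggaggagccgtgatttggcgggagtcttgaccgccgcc
EZH2, chr7:148884292-148884541, minus strand: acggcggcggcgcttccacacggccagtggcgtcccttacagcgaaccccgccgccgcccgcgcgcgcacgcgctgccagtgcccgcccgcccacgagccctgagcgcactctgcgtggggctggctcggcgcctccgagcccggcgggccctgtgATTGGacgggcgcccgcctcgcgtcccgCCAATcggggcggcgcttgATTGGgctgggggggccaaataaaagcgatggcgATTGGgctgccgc
TSPAN1, chr1:46174837-46175086, plus strand: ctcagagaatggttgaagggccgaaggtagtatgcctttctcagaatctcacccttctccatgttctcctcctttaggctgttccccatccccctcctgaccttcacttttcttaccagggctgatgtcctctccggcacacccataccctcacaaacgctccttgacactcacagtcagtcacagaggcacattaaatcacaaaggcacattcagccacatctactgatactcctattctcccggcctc

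On the negative side the 12 named genes had a higher G1 mean at day 28 than at day 0, and stayed closer to day 0 in S and G2 or were lower there. Their phase differences ran from -3.31 to -1.66, with adjusted p between 0.219 and 0.256. Of the 577 genes with a negative phase difference at an unadjusted p under 0.05, 236 (40.9%) were higher by 1 or more in G1 only and 101 (17.5%) were lower by 1 or more in S and G2 only, against 7.85% and 4.1% of all tested genes; the direction of both excesses is fixed by how the 577 were selected. Another 97 (16.8%) were higher in both, against 16.1% of all tested genes. Among the 39 gene lists, which differ in size, the most such genes were on that of lysosome and autophagy, 4 of 26 against 4.66% of all tested genes. This list was picked after its count was seen, and 0 of its members passed the adjusted threshold. The median span of the 577 was 41.7 kb, that of the 805 positive genes 19.3 kb and that of all tested genes 25.8 kb.

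TSPAN1, a tetraspanin, had the most negative value of the 12, and its difference lay in S and G2. G1 held 13.85 and 14.50 at day 0 (clones 1 and 7) and 13.63 and 15.02 at day 28. S stood at 12.88 and 14.50 at day 0 and 10.42 at day 28, and G2 at 13.16 and 10.14. The days overlapped in G1 and lay far apart in S and G2. The phase difference of TSPAN1 was -3.31 ± 0.75 (95% interval -4.98 to -1.64, limma adjusted p = 0.255, ENSG00000117472, chromosome 1, 46181108 to 46185533), and -2.52 in clone 1 alone.

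SPNS2, the exporter of sphingosine-1-phosphate, differed in both directions, with G1 at 11.62 and 11.09 at day 0 and 12.63 and 12.58 at day 28. S stood at 12.07 and 12.23 and then 11.32, and G2 at 10.92 and 8.96. Day 28 was above day 0 in G1 and below it in S and G2. For SPNS2 the phase difference was -2.56 ± 0.46 (limma adjusted p = 0.219, ENSG00000183018, chromosome 17, 4499048 to 4536942).

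PCSK6, SEMA3C and CPZ encode secreted proteins and stood far higher in day 28 G1 than in any day 0 library. PCSK6, a proprotein convertase, lay at 12.28 and 12.42 in day 0 G1 and at 15.29 and 14.84 in day 28 G1. S stood at 11.91 and 11.73 at day 0 and 13.09 at day 28, and G2 at 11.99 and 12.48, for a phase difference of -1.78 ± 0.38 (limma adjusted p = 0.24, ENSG00000140479, chromosome 15, 101305258 to 101489670). All its day 28 libraries were above all of day 0, those of G1 the most. SEMA3C, a secreted semaphorin, lay at 10.47 and 10.93 in day 0 G1 and at 13.17 and 13.71 in day 28 G1. In S it stood at 10.25 and 10.09 and then 11.03, in G2 at 9.55 and 10.37, for a phase difference of -1.91 ± 0.42 (limma adjusted p = 0.243, ENSG00000075223, chromosome 7, 80744894 to 80916781). Within each phase SEMA3C was higher at day 28, by less outside G1. The carboxypeptidase CPZ lay at 10.47 and 10.92 in day 0 G1 and 14.07 and 13.70 in day 28 G1, at 10.23 and 9.87 and then 11.24 in S, and at 9.90 and then 11.29 in G2. CPZ had a phase difference of -1.92 ± 0.40 (limma adjusted p = 0.24, ENSG00000109625, chromosome 4, 8592834 to 8619617). The span of CPZ overlaps GPR78 on the same strand over 6623 bases, so reads of the pair cannot be separated there.

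BPGM, the enzyme that makes 2,3-bisphosphoglycerate, lay at 9.98 and 9.08 in day 0 G1 and at 11.76 and 12.03 in day 28 G1. S stood at 10.32 and 9.65 at day 0 and 9.91 at day 28, and G2 at 10.39 and 10.16, so that only the day 28 G1 libraries stood out. BPGM had a phase difference of -2.50 ± 0.53 (limma adjusted p = 0.24, ENSG00000172331, chromosome 7, 134661508 to 134679031). APPBP2, a substrate receptor of a cullin ubiquitin ligase, varied little at day 0, with 10.80 and 10.81 in G1, 10.94 and 10.94 in S and 11.16 in G2. At day 28 its G1 libraries stood at 12.67 and 12.72 against 11.24 in S and 11.32 in G2, for a phase difference of -1.66 ± 0.34 (limma adjusted p = 0.24, ENSG00000062725, chromosome 17, 60447581 to 60525931). The day 28 G1 libraries of both clones lay close together in APPBP2 and far from every other library.

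WIPI1, which binds phosphoinositides on forming autophagosomes, lay at 11.81 and 11.45 in day 0 G1 and 12.78 and 13.19 in day 28 G1, at 10.97 and 11.57 and then 10.68 in S, and at 11.23 and then 10.69 in G2. Day 28 was above day 0 in G1 and below it in S and G2. Its phase difference was -1.93 ± 0.41 (limma adjusted p = 0.24, ENSG00000070540, chromosome 17, 68421773 to 68457421). The other named genes were the COPII coat subunit SEC24D (-1.88 ± 0.43), the NDR kinase STK38L (-1.68 ± 0.39), the F-box gene FBXO16 (-2.04 ± 0.42) and the aminopeptidase NPEPPS (-1.80 ± 0.40). In all 4 both day 28 G1 libraries lay above every other library, at 13.18 and 12.90 for SEC24D, 12.68 and 13.16 for STK38L, 12.21 and 12.18 for FBXO16, and 14.92 and 15.72 for NPEPPS. FBXO16 overlaps ZNF395 over 149 bases, and NPEPPS has a near-identical copy, so its reads are uncertain.

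**Figure D3:**
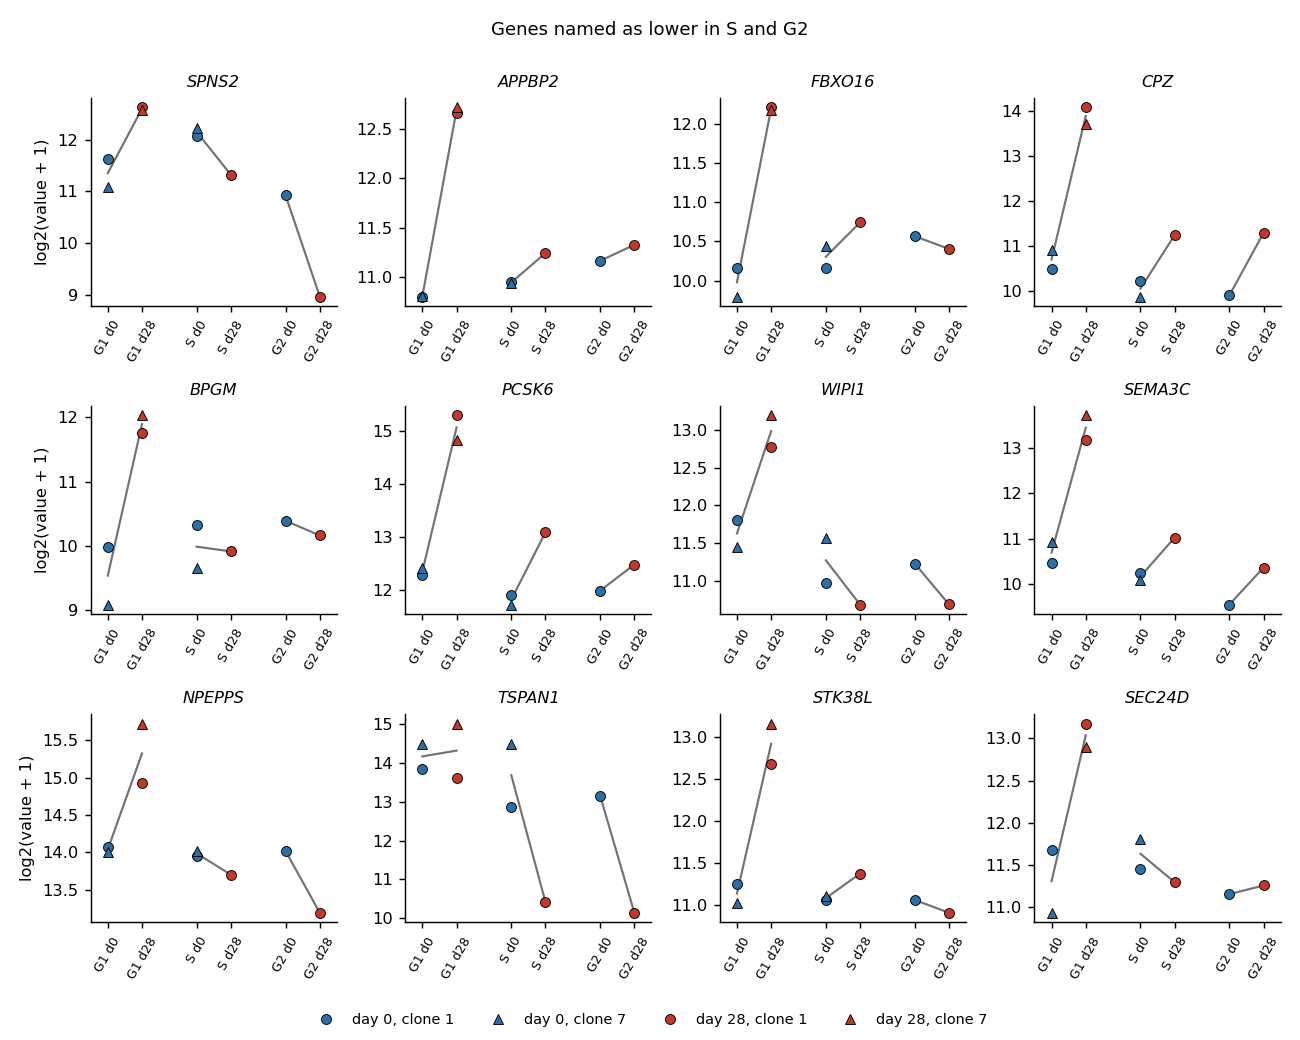
Levels, log2(value + 1), of the 12 genes named on the negative side in each library (circles clone 1, triangles clone 7, blue day 0, red day 28), with lines joining the means of a phase. In 11 panels both red G1 points lie above both blue G1 points, and in TSPAN1 they overlap while the red S and G2 points lie far below the blue.

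Sorted by shape, 443 (55.0%) of the 805 positive genes were lower by 1 or more at day 28 in G1 only. The 805 were selected on the same difference, so an excess over the 10.2% of all tested genes is fixed by the selection and the counts only describe them. Another 107 were higher by 1 or more in S and G2 only, 90 were lower in both, 48 were higher in both, 12 were lower in G1 and higher in S and G2, and 105 differed by less than 1 in either.

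**Figure D4:**
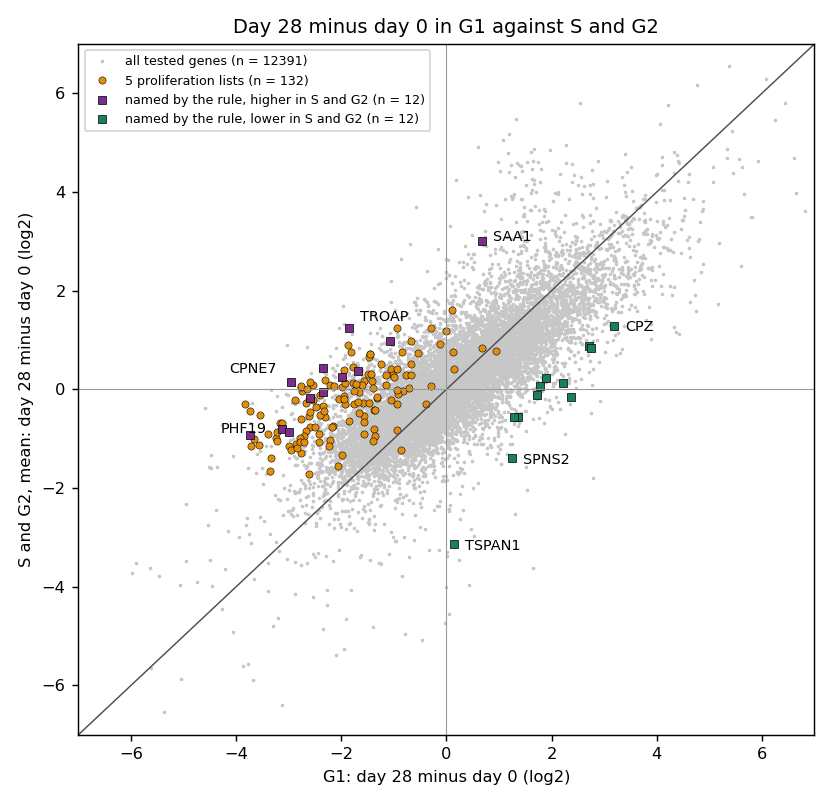
Day 28 minus day 0 difference in G1 (x axis, log2) against the mean of the S and G2 differences (y axis, log2) for the tested genes, with the 132 genes of 5 proliferation lists and the 24 genes named by the rule marked; the diagonal marks equal differences, and 3 genes lie outside the axes. Of the 132 proliferation genes 130 had a positive phase difference, and most lie above the diagonal at the left, near 0 on the y axis.

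Beyond the cell cycle, ribosomal protein and ribosome biogenesis genes had small values, nearly all positive. All 47 cytosolic ribosomal protein genes had a positive phase difference, with a median of 0.54, and 3 (RPS15, RPL35 and RPL14) were at an unadjusted p under 0.05, a share no higher than the 6.50% of all tested genes. Their median day 28 minus day 0 difference was -1.65 in G1, -0.85 in S and -1.36 in G2. In the 32 genes of ribosome biogenesis and RNA polymerase I the median was 0.65, with 7 at an unadjusted p under 0.05 (BOP1, FBL, MRTO4, NHP2, NOP2, NOP56 and POLR1E), all positive. NOP56, a core protein of small nucleolar particles, lay at 15.66 and 16.28 in day 0 G1 and at 14.02 and 14.12 in day 28 G1. Its S levels were 15.92 and 16.08 at day 0 and 15.96 at day 28, and its G2 levels 16.16 and 15.51. The day 28 G1 libraries were its lowest, and its phase difference was 1.60 ± 0.39 (limma adjusted p = 0.256). BOP1, which matures the large ribosomal subunit, stood at 1.68 ± 0.33. The 13 mRNAs of the mitochondrial genome had a median of 0.91 with 0 at an unadjusted p under 0.05. Their median day 28 minus day 0 difference in G1 was 1.61 in clone 1 and -1.02 in clone 7, and in clone 1 alone their median phase difference was -0.24.

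Of the direct outputs of ERK, MYC alone was at an unadjusted p under 0.05 (1 of 23 tested genes, against 6.50% of all tested genes), and the list median was 0.36, or 0.62 in clone 1 alone. PHLDA1 and ETV4, both ERK-induced genes, had larger values in clone 1 alone (2.71 and 2.23) than over all libraries (1.35 and 1.12). MYC, a growth-promoting transcription factor, lay at 14.30 and 14.36 in day 0 G1 and at 12.77 and 12.43 in day 28 G1, while S stood at 13.80 and 14.09 and then 13.44 and G2 at 13.62 and 12.92. It was lower at day 28 in every phase, and its phase difference was 1.14 ± 0.33 (limma adjusted p = 0.263). DUSP6, the ERK phosphatase used as a readout of the pathway, stood at -5.63 in G1, -4.60 in S and -2.64 in G2 as day 28 minus day 0 differences. The G1 value averages -4.06 in clone 1 and -7.20 in clone 7, which has no day 28 S or G2 library. Day 28 G1 clone 7 was low, at 4.54, where the deposited value for no read was 1.15. In clone 1 alone the phase difference of DUSP6 was 0.87. The phase difference of DUSP6 was 1.87 ± 1.16 (95% interval -0.71 to 4.45, limma adjusted p = 0.584), an interval that holds both no difference and a large one. EGFR, the target of the drug, was higher at day 28 by 1.87 in G1, 1.82 in S and 1.40 in G2, for a phase difference of -0.23 ± 0.53 (limma adjusted p = 0.911). Cyclin D1 (CCND1), the mitogen-responsive partner of CDK4, stood at 0.27 ± 0.56 (limma adjusted p = 0.9). Among 22 tested receptor kinases and docking proteins 1 was at an unadjusted p under 0.05 and positive, against 6.50% of all tested genes. It was ERBB4, a receptor of the EGFR family, at 2.40 ± 0.97 (limma adjusted p = 0.402). ERBB4 lay at 8.68 and 9.11 in day 28 G1, 9.87 in S and 11.42 in G2, against 4.46 to 7.50 at day 0. Read density over the olfactory receptor genes ranked the phases at day 28 in the same order. It was 0.00789 and 0.00771 reads per kb and per M reads in G1 (clones 1 and 7), 0.012 in S and 0.0259 in G2. With this density subtracted from every gene, ERBB4 was not among the 3 genes past the adjusted threshold for S and G2 against G1. Its phase difference in that fit is not reported here.

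Metabolic lists had medians from -0.11 to 0.40. For cholesterol synthesis 0 of 23 genes were at an unadjusted p under 0.05 and the median was -0.11. Its day 28 minus day 0 medians were -1.51 in G1, -1.68 in S and -1.78 in G2. The nuclear-encoded respiratory chain had a median of 0.40, with 31 of 37 values positive and 3 at an unadjusted p under 0.05 (ATP5MC3, COX4I1 and COX8A, all positive). Glycolysis had a median of 0.37 (1 of 20 at that level, ENO2), fatty acid synthesis -0.07 (0 of 10) and fatty acid oxidation 0.01 (1 of 16). Over all tested genes 6.50% were positive at that level.

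Matrix genes held large single values in both directions. The matrix glycoprotein tenascin C (TNC) lay at 9.11 and 9.55 in day 0 G1 and at 7.05 and 6.60 in day 28 G1. Its S levels were 8.90 and 9.39 and then 9.04 and its G2 levels 9.03 and 8.91, for a phase difference of 2.39 ± 0.63 (limma adjusted p = 0.256). LOXL2, a collagen cross-linking oxidase, stood at 2.22 ± 0.68. COL6A1, a chain of collagen VI, had the opposite sign at -2.09 ± 0.56, with day 28 minus day 0 differences of -1.45 in G1, -3.96 in S and -2.97 in G2. The mesenchymal list thus had members in both directions and a median of 0.03 over 14 tested genes.

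Lysosome and autophagy genes had a median of -0.32, with 4 of 26 negative at an unadjusted p under 0.05 (WIPI1, NEU1, TFE3 and CTSA) and 1 positive (GLA). Over all tested genes 4.66% were negative and 6.50% positive at that level. NEU1, the lysosomal sialidase, lay at 12.01 and 11.28 in day 0 G1 and at 11.17 and 11.98 in day 28 G1, while S stood at 11.27 and 11.21 and then 9.19 and G2 at 11.40 and 9.78. The days overlapped in G1, and day 28 was lower in S and G2. Its phase difference was -1.80 ± 0.50 (limma adjusted p = 0.259). Interferon-stimulated genes had a median of -0.21, which was -0.50 with the clone as a block and -0.76 in clone 1 alone. Of these 27 genes 2 were negative at an unadjusted p under 0.05, against 4.66% of all tested genes: the RNA sensors RIGI (-1.24 ± 0.41) and IFIH1 (-1.57 ± 0.59). RIGI lay at 9.84 and 9.86 in day 0 G1 and at 12.36 and 12.07 in day 28 G1, with 10.54 in day 28 S and 11.15 in day 28 G2. Among 6 tested alveolar markers NAPSA, an aspartic protease of type 2 cells, stood at -2.93 ± 1.13 (limma adjusted p = 0.386). NAPSA lay at 10.24 and 10.03 in day 28 G1, 8.70 in S and 6.99 in G2, against 4.74 to 6.86 at day 0.

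**Figure D5:**
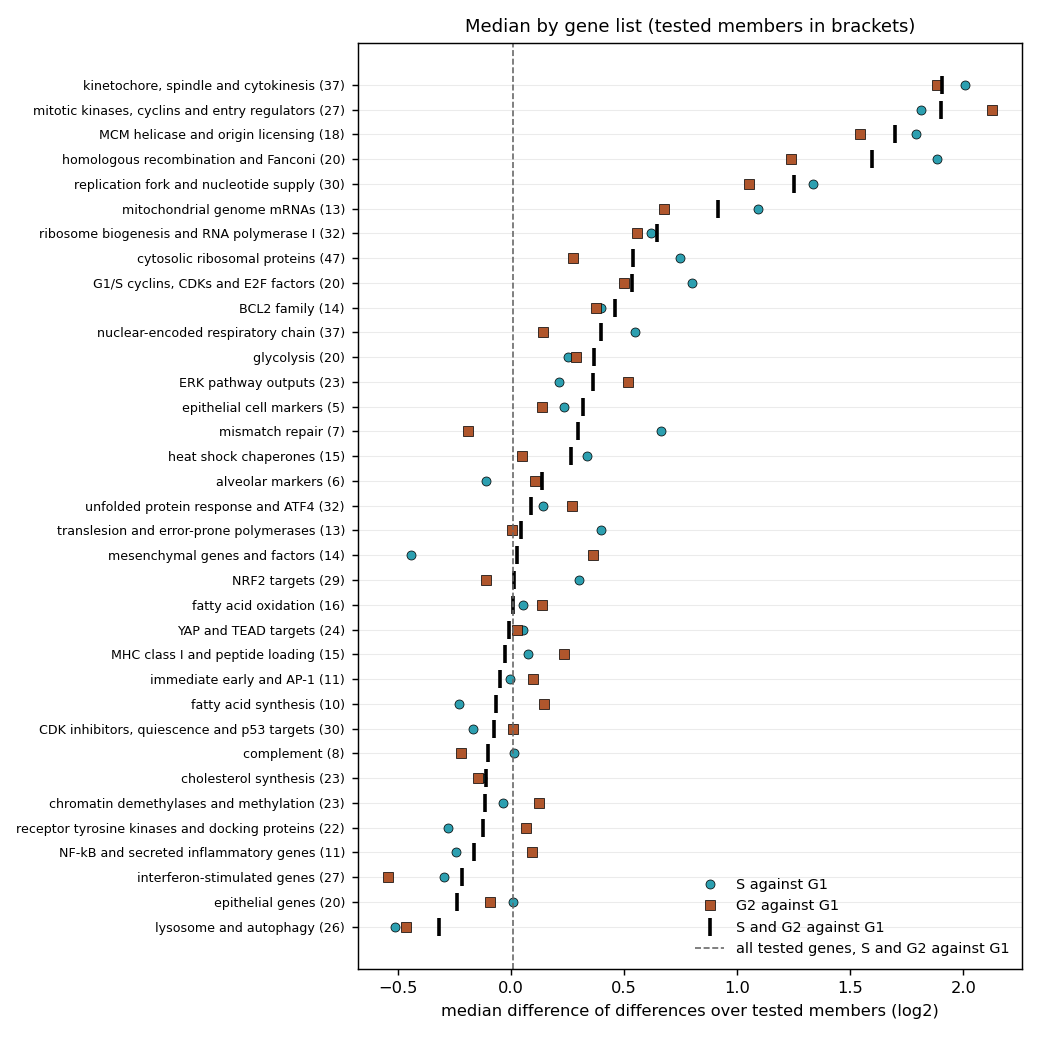
Median difference of differences (log2) over the tested members of each gene list with at least 5 of them, for S against G1, G2 against G1 and both against G1, with the median of all tested genes (0.01) as a dashed line. The 5 proliferation lists stand apart, with medians from 1.25 to 1.90 for both phases, and the other lists lie between -0.32 and 0.91.

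S and G2 were also set against G1 separately, on 6 group means with the spread pooled over the groups, which assumes that a group with 1 library varies as the rest do. For S, 0 genes (0%) passed the adjusted threshold (limma, smallest adjusted p = 0.614) and 923 (7.45%) were at an unadjusted p under 0.05. For G2, 0 genes (0%) passed (limma, smallest adjusted p = 0.136) and 986 (7.96%) were at an unadjusted p under 0.05. Of the 132 proliferation genes 86 were at an unadjusted p under 0.05 and positive for S and 53 for G2, against 4.82% and 3.78% of all tested genes. In neither term was any of the 132 negative at that level, against 2.63% of all tested genes for S and 4.18% for G2. Their median was 1.80 for S and 1.54 for G2.

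The difference between G2 and S, tested directly, also gave 0 genes (0%) past the adjusted threshold (limma, smallest adjusted p = 0.216), with 342 (2.76%) at an unadjusted p under 0.05. Of the 132 genes 0 were positive and 1 (PRIM1, of the DNA primase, -1.63) was negative at that level, against 1.02% and 1.74% of all tested genes, and the median was -0.19. The licensing, fork and recombination lists had medians of -0.42, -0.38 and -0.46, and the mitotic kinases 0.05. Some single values were large, and those that follow were chosen after their values were seen. VIM, the intermediate filament of mesenchymal cells, lay at 11.38 and 12.29 in day 0 S and at 4.78 in day 28 S, and at 11.98 and 9.18 in G2, so that G2 minus S was 4.25 (limma adjusted p = 0.976). The glycolytic kinase HK2 lay at 8.90 and 10.01 in day 0 S and 7.32 in day 28 S, but at 8.64 and 10.22 in G2 (3.72). In both genes the day 28 S library was the lowest of all 9. The desaturase SCD and the chaperone DNAJB9 had no read in day 28 G2, where day 28 S held 124 and 76 reads, and CCNE2 had 1 read against 908. The day 28 G2 library had 22 tested genes without a read and the other libraries between 0 and 10.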

How the data were processed

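RNA-seq of 9 libraries of sorted PC9 cells was read from a deposited table of log2 values for 80037 transcripts, per the file headers. The submitters' processing notes name HISAT2 2.1.0, DESeq2 and the build GRCh38; the counter and the scaling are not given in the sources used here. With the lowest value of a library taken as 0.9 reads, the deposited values came out as whole reads for 100% of low values (within 0.05 reads, up to 1000 reads). Totals over 1 row per gene were 8.83 M to 108.7 M reads per library (M, 1e6). The row with the highest mean was kept for each of 20442 genes, and 12391 genes with a mean deposited log2 value of at least 7.01, worth 10 reads in the shallowest library, were tested.

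Values were tested as log2(value + 1) with limma 3.58.1 in R 4.3.3 (trended eBayes, Benjamini-Hochberg). The terms were phase, day and day in S or G2, with no term for the clone (4 residual degrees of freedom). Separate S, G2 and G2 against S terms came from 6 group means (3 residual degrees of freedom). Such a fold difference understates the change of low genes. Gene lists (856 of 859 entries in the table) were described by counts and medians with no set test. The clone number pairs the libraries, since their deviations from the group means correlated at 0.65, 0.12 and 0.30 over the 3 pairs of groups. The members and lists were chosen with earlier results of these data known. Named genes were the 12 each way past the adjusted threshold, the places being filled by the smallest unadjusted p where none passed, up to 4 of each list with the largest values, and 10 fixed genes; other genes were chosen after their values were seen. The scripts were tested on simulated data. Alternatives covered the pseudocount, filter, scaling, transcript span, voom, background, clone and each library left out. Promoters were RefSeq windows of GRCh38.p14. Some genes on the lists are not reported here by name.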

Additional observations from a re-analysis of the deposited data

How the results depend on the processing

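The phase difference of the 24 genes named by the rule kept its sign under every alternative run, and in 17 of them it passed the adjusted threshold in clone 1 alone or without day 28 G1 clone 1, fits that hold 1 library a group or confound clone with phase at day 28. On the narrowest span it moved by over 1.5 times in EZH2 (1.29), SAA1 (1.24) and BPGM (-3.89). The count of genes past the adjusted threshold for S and G2 against G1 was 0 in the comparison as reported, 3 with the background density subtracted, 152 in clone 1 alone and 0 to 56 when each library was left out in turn. For S against G1 it was 22 with the background subtracted and 0 in each leave-one-out fit. For G2 against G1 it was 6 with no filter, 4 with voom on recovered reads and 84 with the background subtracted, and for G2 against S it was 2, 2 and 70, with 0 in each leave-one-out fit of both. The S and G2 terms could not be fitted without the only library of a group. With the clone as a replicate block 0 genes passed in all 4 comparisons. For S and G2 against G1 the smallest adjusted p was then 0.0588 (limma), against 0.219 without the block. The block gave 1939 genes at an unadjusted p under 0.05, against 1382 without it.

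The count of genes at an unadjusted p under 0.05 was 2269 with no filter, 778 on the narrowest span of each gene and 910 to 1716 in the leave-one-out fits, the lowest without day 0 G2. Of the 132 proliferation genes 69 were higher at that level on the narrowest span and 53 to 115 in the leave-one-out fits. Their median was 1.01 in clone 1 alone and 1.25 to 2.13 in the leave-one-out fits.

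The sign reversed in 7 genes, none of them near the threshold. CCNE2 stood at -0.13 with the background subtracted, at -0.14 without day 0 G1 clone 1 and -0.14 without day 0 S clone 7, at -0.20 without day 28 G1 clone 7, at -3.16 without day 28 S and at -0.20 in clone 1 alone. CDT1 was -0.63, GMNN -0.66, CCND1 -0.24 and EGFR 0.46 without day 0 G1 clone 1, the deepest library. GMNN was also -0.20 on the narrowest span and -0.51 without day 28 S. CDKN1A was -0.093 with quantile scaling. CDKN1B was -0.23 without day 28 G1 clone 7 and -0.28 in clone 1 alone, and CCND1 was -0.08 without day 28 G1 clone 1. The highest values when a library was left out were 3.22 for CCNE2 (without day 0 G2), 2.23 for CDT1, 1.80 for GMNN and 0.78 for CCND1 (without day 0 G1 clone 7) and 0.88 for CDKN1B (without day 28 G1 clone 1), and the lowest for EGFR was -0.92 (without day 0 G1 clone 7). The causes were not tested. The lone day 28 S and G2 libraries and the shallow day 0 G1 library of clone 7 limit what can be resolved. The results for the proliferation lists, clone 1 alone for single genes and the equal weighting of S and G2 were added after seeing the data.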

Other observations

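Phase differences varied with the length of the gene span, which was not part of any comparison. The median was 0.19 in genes of up to 10 kb, 0.06 from 10 to 30 kb, -0.10 from 30 to 100 kb, -0.22 from 100 to 300 kb and 0.08 above 300 kb. The median day 28 minus day 0 difference in G1 went with span as well, from -0.51 in the shortest class to 1.64 above 300 kb. With the background density subtracted the median above 300 kb was -0.46. The proliferation genes had a median span of 28.7 kb, close to the 25.8 kb of all tested genes.

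Of the 4 tested replication-dependent histone genes, whose mRNAs mostly lack the poly(A) tail on which the libraries depend, 0 were at an unadjusted p under 0.05, and the median was -0.68.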
